A study of Mus musculus with 4 samples.

Results

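The 10 genes described here encode the MHC class I complex and part of the machinery that supplies it with peptides. They are the light chain B2m, the heavy chains H2-K1, H2-D1, H2-Q7 and H2-T23, the peptide transporter subunits Tap1 and Tap2, the loading factor Tapbp, and the immunoproteasome subunits Psmb8 and Psmb9. They were chosen by name, with earlier results of these data known, and they are 10 of the 41862 genes counted in each library. Each was followed across 4 single-cell RNA libraries, by cell class, in the 7899 of 12987 barcodes that had at least 500 unique molecular identifiers (UMIs, each marking 1 captured RNA molecule) and at most 20% mitochondrial UMIs.

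The libraries were made with inDrops, a droplet method, from C57BL6 mice of the Aldh1l1CreERT2-TdTomato line, in which a tamoxifen-dependent Cre under the astrocyte promoter Aldh1l1 drives a red fluorescent reporter. Cells of the central nervous system that were positive for TdTomato and for surface LAMP1, a lysosomal membrane protein, were sorted into a fraction positive (TRAIL+) and a fraction negative (TRAIL-) for surface TRAIL, a death ligand. The donors were either naive mice or mice in the peak phase of EAE (experimental autoimmune encephalomyelitis), a model of multiple sclerosis raised by injecting 150 µg of the myelin peptide MOG35-55 in complete Freund's adjuvant (CFA). Tissue of 3 naive and 3 EAE mice is described, and the sources used here do not say whether a library holds cells of 1 mouse or of several. The 4 groups, which are the TRAIL- and TRAIL+ fractions of naive mice and of EAE mice, had 1 library each, so no difference below has a replicate check, no p-value is given, and every interval covers counting error only.

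MHC class I molecules sit on the surface of nearly all nucleated cells and show short peptides from the cell's own proteins to CD8 T cells and natural killer cells. The peptides are cut by the proteasome, whose catalytic subunits are exchanged for Psmb8 and Psmb9 in cells exposed to interferon, and are pumped into the endoplasmic reticulum by the Tap1 and Tap2 pair. Tapbp, or tapasin, holds an empty heavy chain and light chain beside the pump until a peptide binds. Healthy neurons and glia carry little MHC class I, and interferons raise it in inflamed nervous tissue. H2-K1 and H2-D1 are the classical heavy chains, which present to CD8 T cells, while H2-T23 encodes the mouse Qa-1 molecule, which presents signal peptides of other class I molecules to receptors on natural killer cells, and H2-Q7 encodes a Qa-2 heavy chain.

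By the GENCODE annotation of GRCm38, 9 of the 10 genes lie in the MHC region of chromosome 17 and B2m lies alone at chr2:122147686-122153083 (plus strand). From one end of the region, Tapbp lies at chr17:33915899-33929292 (plus) and H2-K1 at chr17:33996017-34000347 (minus). Psmb9 at chr17:34181987-34187764 (minus), Tap1 at chr17:34187553-34197225 (plus), Psmb8 at chr17:34197721-34201454 (plus) and Tap2 at chr17:34203527-34216321 (plus) form a tight cluster. H2-D1 at chr17:35262730-35267499 (plus), H2-Q7 at chr17:35439155-35443773 (plus) and H2-T23 at chr17:36029773-36032855 (minus) lie farther on. The annotated ends of Psmb9 and Tap1 overlap on opposite strands. The heavy chain genes are close paralogs, and the sources used here do not say how the authors' counting shared reads between near-identical stretches, so the split of counts among H2-K1, H2-D1, H2-Q7 and H2-T23 is uncertain.

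Promoter windows from 250 bases before to 50 bases after an annotated start were found for 9 of the 10 genes in the RefSeq promoter table of GRCm38.p6, and Tap2 had no entry. The windows were searched on both strands for letters that interferon and inflammatory factors are known to bind. These were an interferon-stimulated response element (ISRE, GAAA and again GAAA with 2 bases of any kind between them), a gamma-activated site (GAS, TTC and GAA with 3 bases between them) and an NF-kB site (GGGA and CC with 4 bases between them). A CRE-like core (TGACG), which in class I promoters belongs to the element bound by the NLRC5 complex, and a CCAAT box (CCAAT) were searched as well. B2m, H2-K1, H2-D1 and H2-Q7 held an NF-kB site, then a CRE-like core, then a CCAAT box read on the opposite strand as ATTGG. Their stretches are shown first because these are the light chain and the heavy chains on which the comparisons turn, with the matched letters in capitals. For B2m the first capitals are the ISRE, and for the others they are the NF-kB site.
B2m, chr2:122147546-122147643, plus strand: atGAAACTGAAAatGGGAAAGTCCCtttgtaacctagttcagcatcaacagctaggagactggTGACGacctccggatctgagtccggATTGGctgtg
H2-K1, chr17:34000354-34000472, minus strand: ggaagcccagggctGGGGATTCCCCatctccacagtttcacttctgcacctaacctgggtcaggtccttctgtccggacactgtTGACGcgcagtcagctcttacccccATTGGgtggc
H2-D1, chr17:35262909-35263027, plus strand: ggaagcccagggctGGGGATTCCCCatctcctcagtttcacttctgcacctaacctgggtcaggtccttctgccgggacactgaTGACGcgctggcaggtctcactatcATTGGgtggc
H2-Q7, chr17:35439008-35439124, plus strand: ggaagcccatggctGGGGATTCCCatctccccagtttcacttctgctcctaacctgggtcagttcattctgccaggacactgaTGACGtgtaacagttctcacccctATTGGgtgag
The H2-K1 and H2-D1 stretches were the same at 108 of 119 bases (90.8%). The CCAAT box began 25 bases after the start of the CRE-like core in B2m, H2-K1 and H2-D1 and 24 bases after it in H2-Q7. The NF-kB match nearest to that core began 69 bases before it in the 3 heavy chain genes and 48 bases before it in B2m. In B2m, H2-K1 and H2-D1 a further match on the other strand overlapped it and began 1 base earlier, and the capitals cover both.

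Of the 32544 distinct promoter windows in the table, 62 (0.191%) held a CRE-like core with a CCAAT box at a spacing of 24 or 25 bases. The spacing was read off these genes, so the small share describes it and tests nothing. The 62 windows belonged to 56 genes, and the other MHC gene among them was the heavy chain gene H2-M3. Single motifs were much more common. An NF-kB site was in 20.8% of all windows and in the windows of 4 of the 9 genes, a CRE-like core in 20.9% and 6 of 9, and a CCAAT box in 37.4% and 8 of 9. The ISRE letters were in 3.45% of all windows and in those of B2m and H2-T23, and the GAS letters were in 8.33% and in that of Psmb8.
H2-T23, ISRE in capitals, chr17:36032806-36032835, minus strand: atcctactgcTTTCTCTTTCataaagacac
Psmb8, GAS in capitals, chr17:34198088-34198116, plus strand: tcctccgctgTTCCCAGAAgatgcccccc
A match shows that the letters are present and is not a binding site. A window without a match is not shown to lack the element, since variants of the letters were not searched. The windows of Psmb9 (chr17:34187281-34187580, minus) and Tap1 (chr17:34187306-34187605, plus) overlap for most of their length, and they share 1 CRE-like core and 1 CCAAT box.

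The labels call the sorted cells astrocytes, which the markers did not bear out: 184 of 7899 kept barcodes were astrocyte-like, with 138 in naive TRAIL+ and 35 in naive TRAIL-, and 3 and 8 in the TRAIL- and TRAIL+ libraries of EAE. The deposited tables listed 2803 to 3703 barcodes and 2856696 to 3984975 UMIs per library, and 1597 to 2259 barcodes per library were kept, with a median of 949 to 1908 UMIs. Clusters, built without the 10 genes and the rest of their pathway, were named from marker genes. Microglia-like barcodes made up 83.4% of EAE TRAIL+ and 81.9% of naive TRAIL+, but 15.4% of EAE TRAIL- and 13.8% of naive TRAIL-, where endothelial-like and pericyte- or smooth muscle-like barcodes were the largest classes. The 2 gates therefore hold different cells, and the genes were compared only within a class. Between 23 and 40 kept barcode sequences were found in both libraries of a pair, and TdTomato was not among the counted genes. A class was given a level in a library where it had at least 25 barcodes and 20000 UMIs, which 22 pairs of class and library met. Levels are UMIs per 1000000 UMIs of the class in that library (CPM), with exact Poisson 95% intervals, and are compared for 1 gene across classes, never between genes.

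The level of the 10 genes differed widely between cell classes. Summed over the 10, it was highest in a cluster led by Chil3 and Plac8, monocyte or macrophage genes, at 17274 CPM (95% interval 16934 to 17619) in EAE TRAIL+ and 15661 CPM (15376 to 15950) in EAE TRAIL-. Microglia-like cells of EAE followed at 14398 CPM (TRAIL-) and 12073 CPM (TRAIL+), on either side of a cluster led by Mrc1 and Pf4, genes of border-associated macrophages, at 13078 CPM in EAE TRAIL+. Naive microglia-like cells stood at 6394 CPM (TRAIL+) and 5798 CPM (TRAIL-), and naive endothelial-like cells at 5844 and 5145 CPM in the same order. Pericyte-like cells had 1864 CPM in naive TRAIL- and astrocyte-like cells 1569 CPM in naive TRAIL+. The lowest 2 levels were those of naive TRAIL- oligodendrocyte-like cells, 302 CPM (215 to 411), and choroid plexus-like cells, 264 CPM (213 to 324), whose intervals overlap.

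**Figure D1:**
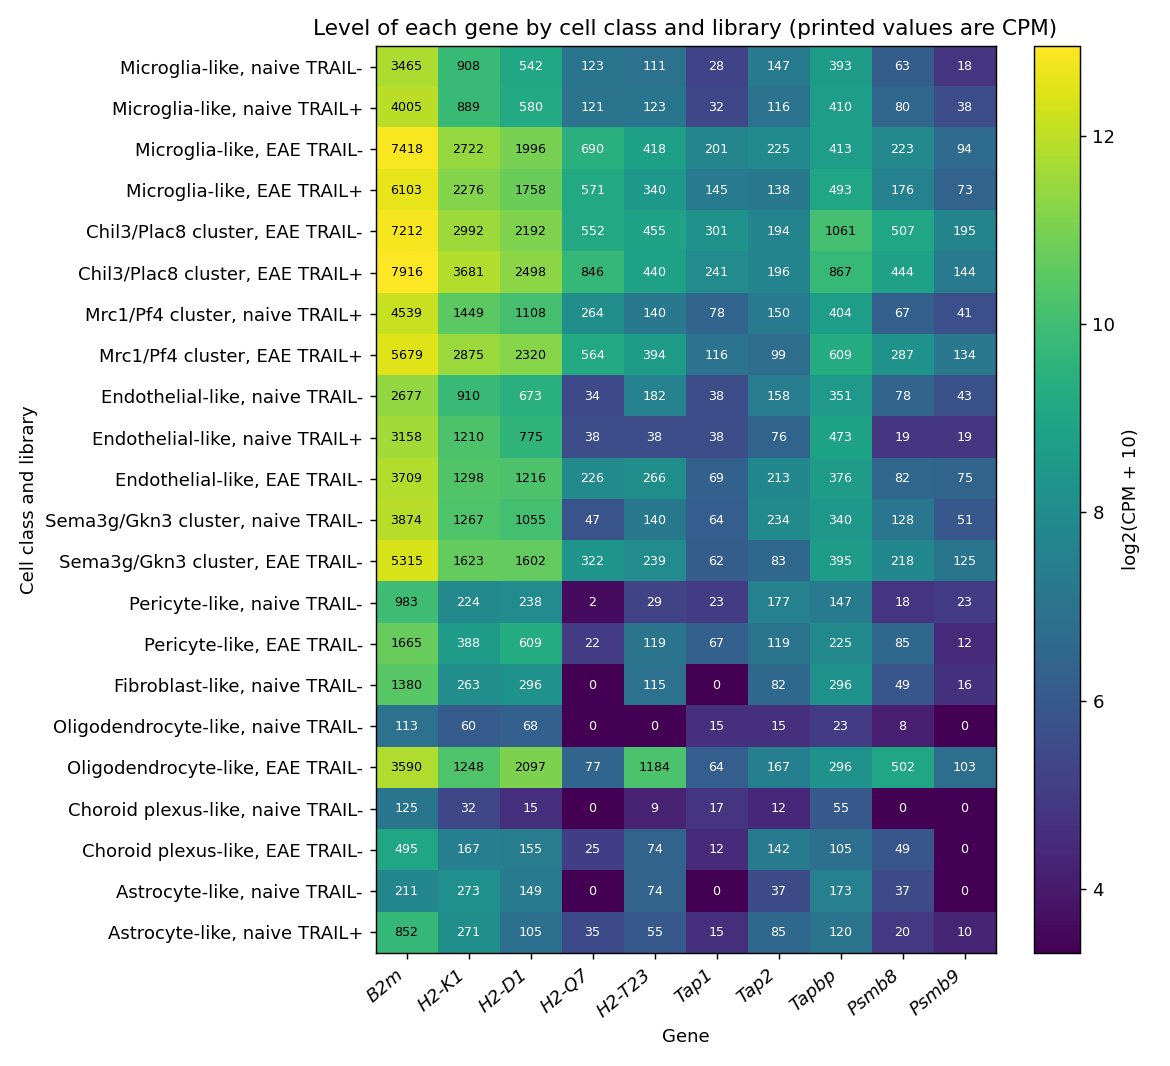
Level of each of the 10 genes (columns) in every cell class and library that had a level (rows), as UMIs per 1000000 of the class (CPM, printed in each field); the colour is log2(CPM + 10). The EAE rows of the Chil3/Plac8 cluster and of microglia-like cells are the brightest, up to 7916 CPM of B2m, and the naive oligodendrocyte-like and choroid plexus-like rows are the darkest, at 113 and 125 CPM of B2m.

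Single genes kept to this order to different degrees. B2m was highest in the Chil3/Plac8 cluster of EAE TRAIL+ at 7916 CPM (7686 to 8151), which did not overlap the next level, 7418 CPM (7173 to 7669) in EAE TRAIL- microglia-like cells. That value overlapped the 7212 CPM of the Chil3/Plac8 cluster in EAE TRAIL-. Below them, the B2m levels from 4005 CPM in naive TRAIL+ microglia-like cells to 3158 CPM in naive TRAIL+ endothelial-like cells each overlapped their neighbour. H2-T23 departed from the order of the sum, being highest in EAE TRAIL- oligodendrocyte-like cells at 1184 CPM (954 to 1452), well clear of the 455 CPM (408 to 507) of the Chil3/Plac8 cluster in EAE TRAIL-. The EAE levels of H2-T23 in the Chil3/Plac8 cluster, microglia-like cells and the Mrc1/Pf4 cluster, from 455 to 340 CPM, each overlapped their neighbour. Tap2 departed from it more. Its highest level was in the naive TRAIL- library, 234 CPM (176 to 304) in a cluster led by Sema3g and Gkn3, while EAE TRAIL+ microglia-like cells stood at 138 CPM and the EAE Mrc1/Pf4 cluster at 98.5 CPM, and each Tap2 level overlapped the next one. Because cells and levels differ by gate, the share of the 10 genes' UMIs from each class differed too. Microglia-like cells gave 87.5% of them in the TRAIL+ gate of naive mice and 76.0% in that of EAE mice, the Chil3/Plac8 cluster gave 45.0% in EAE TRAIL-, and endothelial-like cells gave 42.3% in naive TRAIL-.

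Microglia-like cells, the class with many barcodes in all 4 libraries (312 and 1826 naive, 246 and 1512 EAE, TRAIL- first), had more of the heavy chains in EAE in both gates. H2-D1 stood at 542 and 580 CPM in the naive libraries and 1996 and 1758 CPM in the EAE libraries, TRAIL- before TRAIL+. H2-K1 stood at 908, 889, 2722 and 2276 CPM in the same order, and H2-Q7 at 123, 121, 690 and 571 CPM. For each of these 3 genes both EAE libraries were above both naive ones, with intervals that did not overlap. EAE over naive, H2-D1 was 3.68-fold higher (95% interval 3.21 to 4.23) in the TRAIL- gate and 3.03-fold (2.87 to 3.20) in the TRAIL+ gate. H2-K1 was 3.00-fold (2.69 to 3.35) and 2.56-fold (2.45 to 2.68) higher, and H2-Q7 5.60-fold (4.25 to 7.50) and 4.72-fold (4.21 to 5.30) higher. H2-T23, at 111, 123, 418 and 340 CPM, was 3.76-fold and 2.77-fold higher. The light chain B2m had the smaller ratio, with 3465 and 4005 CPM in the naive libraries against 7418 and 6103 CPM in EAE, or 2.14-fold (2.02 to 2.27) in the TRAIL- gate and 1.52-fold (1.49 to 1.56) in the TRAIL+ gate.

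The peptide supply genes split. Tap1 had 28.2 CPM in the TRAIL- and 32.2 CPM in the TRAIL+ library of naive mice and 201 and 145 CPM in those of EAE, which made it 7.13-fold (4.04 to 13.5) and 4.51-fold (3.61 to 5.68) higher. Its partner Tap2, at 147, 116, 225 and 138 CPM in the same order, was 1.53-fold (1.12 to 2.09) and 1.19-fold (1.03 to 1.38) higher. In the TRAIL- gate 14 and 11 of its 105 EAE UMIs and 7 and 6 of its 73 naive UMIs came from 2 barcodes each, and 14.6% of EAE and 11.9% of naive barcodes had a Tap2 UMI, not thinned. Tapbp, at 393, 410, 413 and 493 CPM, was at 1.05-fold (0.857 to 1.29, and just below 1 under size factors) and 1.20-fold (1.11 to 1.30). The immunoproteasome subunit Psmb8, at 62.5, 80.0, 223 and 176 CPM, was 3.56-fold and 2.19-fold higher. Psmb9, at 18.2, 38.2, 94.2 and 73.1 CPM, was 5.19-fold (2.50 to 12.1) and 1.92-fold (1.52 to 2.42) higher. The intervals of Tap1 and Tap2, the partners in 1 pump that lie near each other in the cluster, did not overlap in either gate. Tap1 was below 50 CPM in naive cells and was compared through its EAE counts, so this describes the ratios and tests nothing.

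By a size rule of at least 2-fold, 8 of the 10 genes were higher in EAE in the TRAIL- gate, where 6.34% of the 3231 genes compared were. In the TRAIL+ gate 6 of 10 were, against 2.16% of 3200 genes. The minimum for comparison was a mean of 50 CPM and 20 UMIs over the 2 libraries. Tap1 and Psmb9 were below 50 CPM in naive cells of both gates and reached it through their EAE counts, so their part in these counts carries no weight. Of the other 8 genes 6 were at least 2-fold higher in the TRAIL- gate and 5 in the TRAIL+ gate. None of the 10 was at least 2-fold lower, against 7.99% and 0.312% of the genes compared, shares at which none of 10 is unremarkable. The median log2 ratio of those 8 was 1.71 in the TRAIL- gate and 1.24 in the TRAIL+ gate, beside -0.08 and -0.05 over all genes compared. Within the larger microglial cluster alone 8 and 5 of the 10 were at least 2-fold higher, and within the second 7 and 7. Each of these counts includes Tap1, which was below 50 CPM in the naive cells of both clusters too. They have no share of all genes within the cluster beside them, so they carry no weight of their own.

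**Figure D2:**
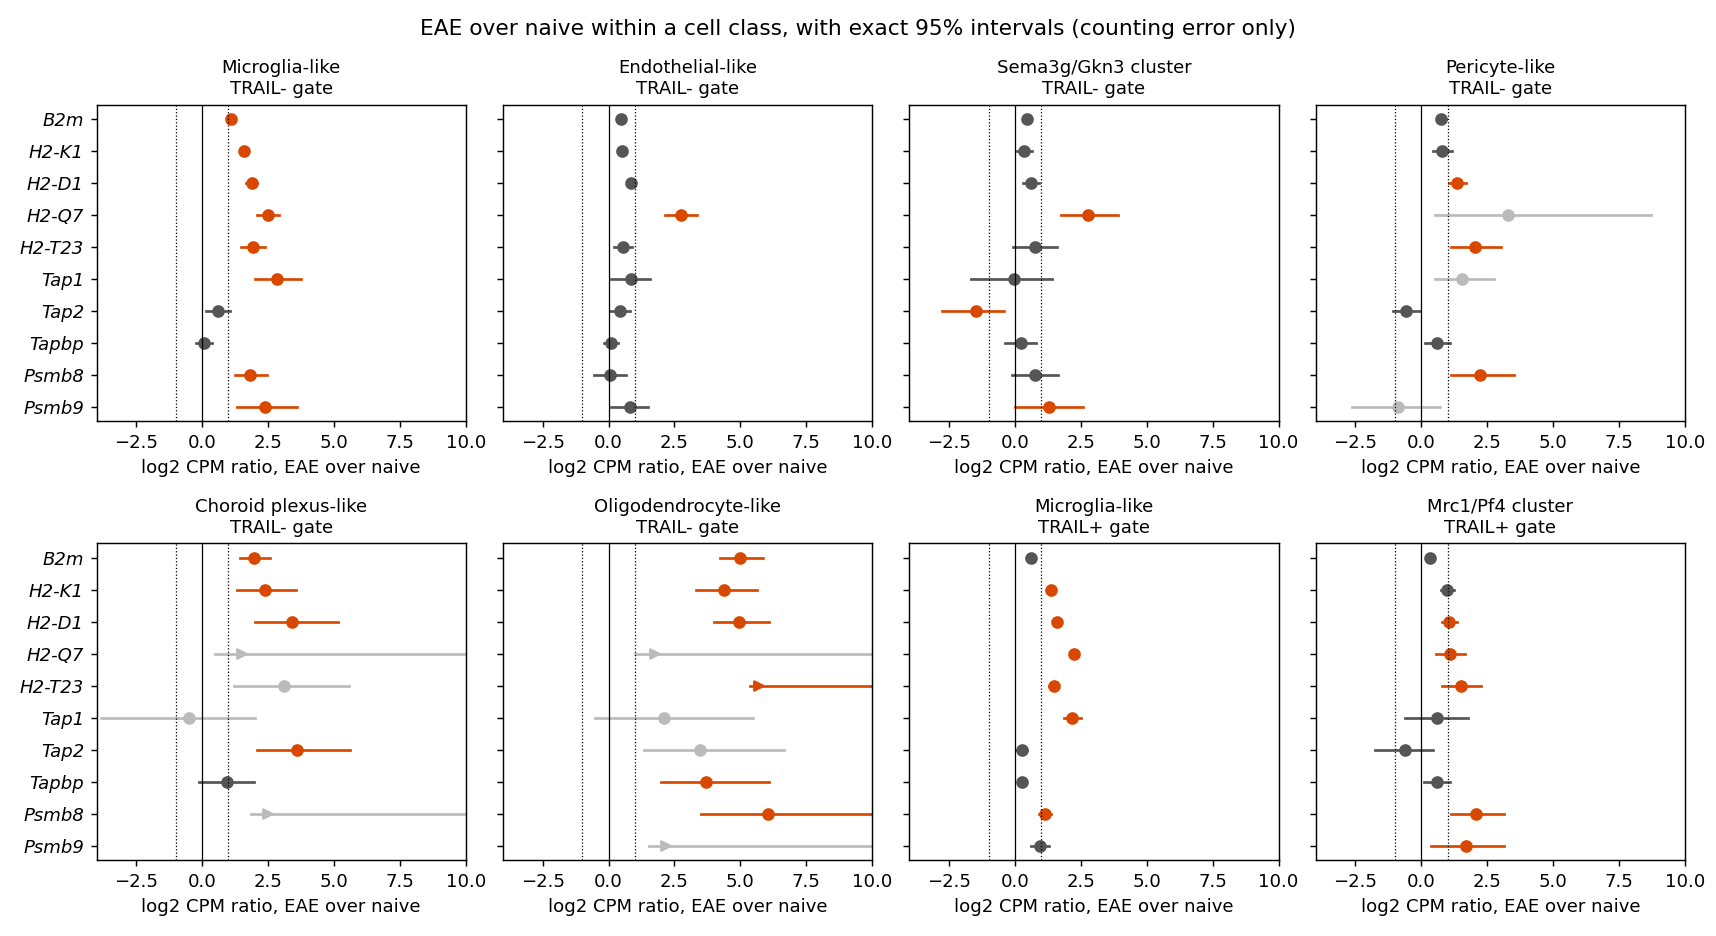
Log2 ratio of CPM in EAE over naive for each gene, in 6 cell classes of the TRAIL- gate and 2 of the TRAIL+ gate; points are ratios, lines exact 95% intervals for counting error only (cut at 10), dotted lines mark 2-fold. Orange points are at least 2-fold apart, dark grey points less, light grey points had too few counts to be compared, and arrowheads are lower bounds where naive had no UMI; Tap1 stands right of Tap2 in both microglia-like panels (7.13- against 1.53-fold and 4.51- against 1.19-fold).

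In microglia-like cells other heavy chain genes were higher in EAE too. Of 10 further heavy chain genes counted, 4 had enough UMIs in each gate, and 3 were at least 2-fold higher. In the TRAIL- gate these were H2-Q6, a neighbour and near copy of H2-Q7, at 9.72-fold, H2-M3, which presents formylated peptides, at 3.86-fold and H2-T22 at 2.37-fold. In the TRAIL+ gate they were 4.41-, 2.77- and 3.27-fold higher. None of the 5 loading chaperones and trimming genes (Calr, Canx, Pdia3, Erap1, Tapbpl) was 2-fold apart in either gate. Of all genes compared 6.34% were at least 2-fold higher and 7.99% lower in the TRAIL- gate, and 2.16% and 0.312% in the TRAIL+ gate. At such shares none of 5 is unremarkable. Among the other proteasome genes, Psme1, a subunit of the interferon-inducible proteasome activator, was 3.14-fold and 2.09-fold higher, 1 of 2 and 1 of 3 compared. Among the regulators, Irf1, an interferon-induced activator of class I genes, was 2.58-fold higher in the TRAIL- gate, and Stat2 and Irf9, parts of the complex that acts on type I interferon signals, were 2.19-fold and 2.09-fold higher. In the TRAIL+ gate Stat2 was 3.49-fold higher.

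The difference was spread over most microglia-like barcodes. After every barcode was thinned to 500 UMIs, the median number of UMIs on the 10 genes was 2 (TRAIL-) and 3 (TRAIL+) in naive mice and 6 and 5 in EAE. None of the 10 genes was seen in 10.3% of TRAIL- barcodes of naive mice and 0.813% of those of EAE. H2-D1 was seen in 17.0% and 22.8% (95% interval 20.9 to 24.8) of the naive TRAIL- and TRAIL+ barcodes, and in 52.0% (45.6 to 58.4) and 51.9% of those of EAE. H2-K1 was seen in 27.9%, 31.5%, 63.0% and 58.6%. Without thinning the H2-D1 shares were 42.9%, 49.7%, 82.1% and 81.9%, at medians of 1529 and 1552 UMIs in naive and 1863 and 1870 UMIs in EAE barcodes. No class is known to lack these genes altogether, and the lowest thinned share was in naive TRAIL- choroid plexus-like cells, 2.20% for H2-D1 and for H2-K1, at a median of 3190 UMIs.

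**Figure D3:**
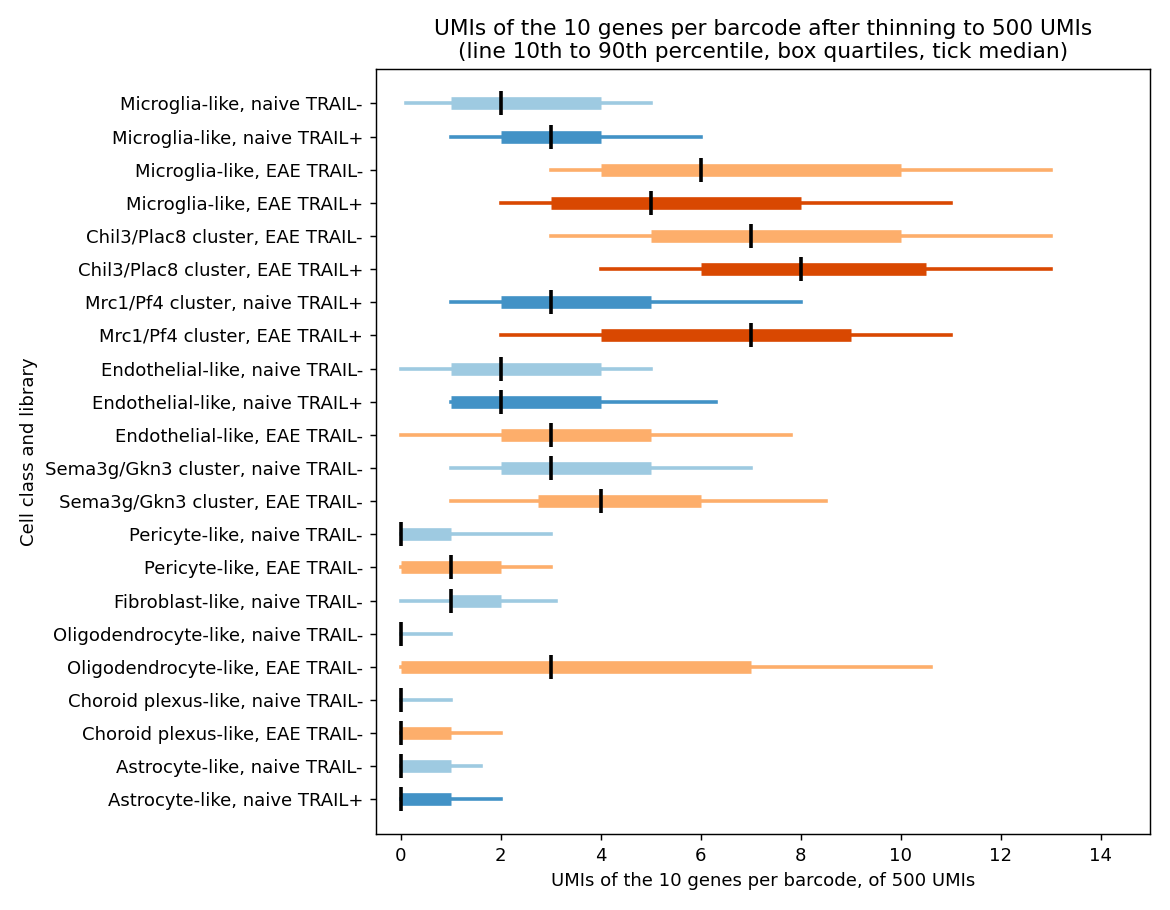
UMIs of the 10 genes per barcode after thinning each barcode to 500 UMIs (x axis), by cell class and library (rows); ticks are medians, thick bars the middle 50% of barcodes and thin lines the 10th to 90th percentile. Microglia-like medians are 2 and 3 in naive and 6 and 5 in EAE, and the thin line of EAE oligodendrocyte-like barcodes runs from 0 to 10.6 around a median of 3.

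Among the microglia-like cells of EAE, barcodes that carried MHC class II UMIs had more of the class I genes. The class II genes H2-Aa, H2-Ab1, H2-Eb1 and Cd74, which serve antigen presentation to CD4 T cells, were not used to define the cells. Of EAE TRAIL+ barcodes 739 had at least 1 class II UMI of 500 and 773 had none. The 10 genes summed to 14281 CPM in the first and 9903 CPM in the second, a ratio of 1.44, and in EAE TRAIL- to 16283 CPM (143 barcodes) and 11737 CPM (103 barcodes), a ratio of 1.39. H2-Q7 differed most in EAE TRAIL+, with 794 against 353 CPM, or 2.25-fold, while Tapbp had 519 against 467 CPM, or 1.11-fold. Tap2, with 176 against 101 CPM, differed by 1.74-fold in EAE TRAIL+ and, with 234 against 212 CPM, by 1.11-fold in EAE TRAIL-. Not thinned, 483 EAE TRAIL+ and 67 EAE TRAIL- barcodes had no class II UMI, so some of those counted here as without carried some. EAE barcodes without a class II UMI of 500 had more H2-D1 than naive microglia-like cells. They had 1328 CPM in the TRAIL+ and 1576 CPM in the TRAIL- library, against at most 580 CPM. That did not hold for every gene, since Tap2 at 101 CPM in the first and Tapbp at 351 CPM in the second were below both naive levels. These are barcodes of 1 library each, so the split describes the cells and not the condition.

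**Figure D4:**
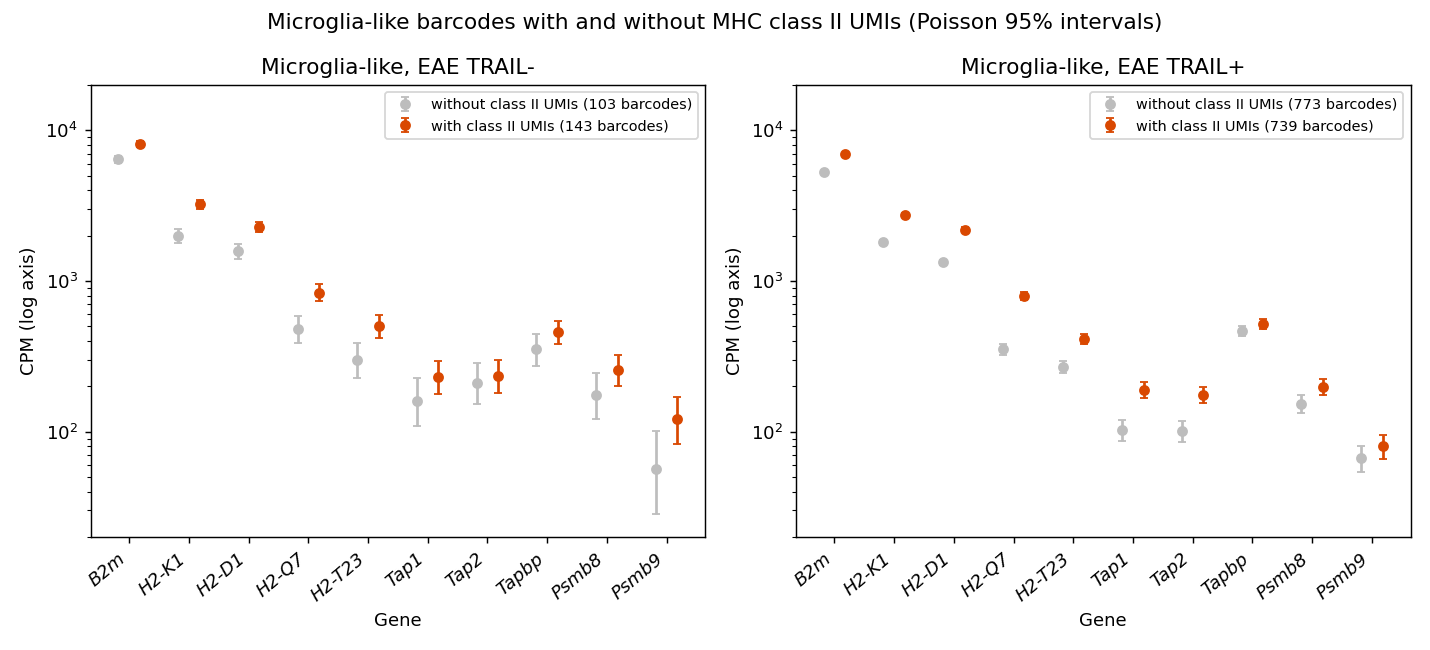
Level of each gene (CPM, log axis) in microglia-like barcodes with (orange) and without (grey) at least 1 MHC class II UMI of 500, in EAE TRAIL- and EAE TRAIL+; bars are exact Poisson 95% intervals. Orange points lie above grey ones for all 10 genes in both libraries, with H2-Q7 at 794 against 353 CPM in EAE TRAIL+.

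Between the gates, the 10 genes differed by less than 2-fold in microglia-like cells wherever they could be compared. In EAE none of the 10 was 2-fold apart (2.33% of 3182 genes compared were), and in naive mice none of the 8 with enough counts was (1.23% of 3176 genes). At such shares none would be usual for any 10 genes, so these counts say little about the genes described here. TRAIL+ over TRAIL- in EAE, Tapbp was 1.19-fold (1.03 to 1.39) and the other 9 genes were below 1, from Tap2 at 0.614-fold (0.494 to 0.767) to H2-D1 at 0.881-fold (0.822 to 0.945). B2m was at 0.823-fold (0.793 to 0.853). These small differences depend on the scaling. As reported, the median log2 ratio over all genes compared was -0.02 between the EAE gates and -0.03 between the naive gates. Under edgeR's TMM and under size factors H2-D1 turned to a log2 ratio of 0.01 and 0.00 and B2m moved from -0.28 to -0.09. In naive mice B2m was 1.16-fold (1.10 to 1.22) and H2-K1 0.980-fold (0.886 to 1.09) TRAIL+ over TRAIL-, and H2-K1 turned to a log2 ratio of 0.21 and 0.22 under those scalings. Tap1 (1.14-fold) and Psmb9 (2.10-fold, on 9 UMIs in TRAIL-) were under the minimum.

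The cluster led by Chil3 and Plac8 was an EAE population, with 280 barcodes in EAE TRAIL- and 207 in EAE TRAIL+ but 15 and 14 in the naive libraries, so it has no naive level. Of the 22 levels, those of B2m, H2-K1, H2-D1 and H2-Q7 were highest here in EAE TRAIL+. Those of Tap1, Tapbp, Psmb8 and Psmb9 were highest here in EAE TRAIL-. For H2-D1, Psmb8 and Psmb9 the highest level overlapped the level in EAE oligodendrocyte-like cells. For H2-D1 and Psmb9 it also overlapped the EAE level of the Mrc1/Pf4 cluster, and for Psmb9 that of the Sema3g/Gkn3 cluster. H2-T23 and Tap2 did not have their highest level here. Tapbp stood at 1061 CPM (988 to 1138) in EAE TRAIL- and 867 CPM in EAE TRAIL+, against 413 and 493 CPM in microglia-like cells of the same libraries. Tap1 stood at 301 CPM (263 to 344) and 241 CPM against 201 and 145 CPM, Psmb8 at 507 and 444 CPM against 223 and 176 CPM, and Psmb9 at 195 and 144 CPM against 94.2 and 73.1 CPM. B2m stood at 7212 and 7916 CPM against 7418 and 6103 CPM. The cluster differed between the gates in what else it held. Microglial markers summed to 6427 CPM in EAE TRAIL- and 17977 CPM in EAE TRAIL+, monocyte and macrophage markers to 17620 and 9620 CPM, and MHC class II genes to 13163 and 21205 CPM. Their part in the levels was not tested.

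The cluster led by Mrc1 and Pf4 had levels in the TRAIL+ gate, from 132 naive and 61 EAE barcodes. H2-D1 stood at 1108 CPM in naive mice and 2320 CPM in EAE, 2.09-fold higher (1.74 to 2.52), and H2-K1 at 1449 and 2875 CPM, 1.98-fold higher. Psmb8, at 67.3 and 287 CPM, was 4.26-fold higher (2.17 to 8.84), Psmb9, at 41.4 and 134 CPM, 3.25-fold, H2-T23 2.82-fold and H2-Q7 2.14-fold. B2m, at 4539 and 5679 CPM, was 1.25-fold higher (1.13 to 1.39). Tap2, at 150 and 98.5 CPM, was at 0.657-fold (0.296 to 1.35). At least 2-fold higher were 5 of the 10, against 7.42% of 2615 genes compared. Under either other scaling 3 of the 10 were (H2-T23, Psmb8 and Psmb9), and H2-D1 and H2-Q7 fell below 2-fold. Psmb8 and Psmb9, on 13 and 8 naive UMIs, did not reach the minimum in the naive library alone. They add no weight to either count, which leaves H2-T23 under the other scalings. Of the other pathway genes H2-Q6 and Psmb10, the third immunoproteasome subunit, were 3.71-fold higher, H2-Q4 2.40-fold and Irf1 2.35-fold. Ifnar1, a chain of the type I interferon receptor, was at 0.266-fold on 4 EAE UMIs, where 12.4% of the genes compared were at least 2-fold lower. MHC class II genes, which naive cells of this cluster already carried at 6827 CPM, stood at 15811 CPM in EAE.

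Vascular cells had levels in the TRAIL- gate, and in endothelial-like cells H2-Q7 stood out. It was at 34.0 CPM (22.9 to 48.5) in 951 naive TRAIL- barcodes and 226 CPM (185 to 273) in 423 EAE TRAIL- barcodes, 6.64-fold higher (4.39 to 10.3). H2-D1, at 673 and 1216 CPM, was 1.81-fold higher (1.61 to 2.03), H2-K1, at 910 and 1298 CPM, 1.43-fold, and B2m, at 2677 and 3709 CPM, 1.39-fold (1.30 to 1.47). Tapbp at 1.07-fold and Psmb8 at 1.05-fold had intervals that include 1, and both turned below 1 under TMM. H2-Q7 was thus the 1 gene of 10 at least 2-fold higher, against 3.08% of 3635 genes, and it reached the minimum through its EAE counts, since 34.0 CPM is below it. Of the other pathway genes H2-T22 (2.08-fold) and Irf1 (2.12-fold) were at least 2-fold higher. Naive TRAIL+ endothelial-like cells, 48 barcodes, had 3158 CPM of B2m and 37.8 CPM of H2-Q7 (2 UMIs), beside 5371 CPM of microglial markers.

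A further cluster, led by Sema3g and Gkn3, carried 11 of 14 endothelial markers among its 100 leading genes but was left unnamed because a neuronal marker stood among its first 10. H2-Q7 was at 46.8 CPM in 208 naive TRAIL- barcodes and 322 CPM in 76 EAE TRAIL- barcodes, 6.89-fold higher (3.37 to 15.2). These barcodes came from the same libraries as the endothelial-like cells, so the ratio is not a repeat of theirs. Psmb9, at 51.0 and 125 CPM on 12 UMIs each, was 2.45-fold higher (1.01 to 5.95). B2m, at 3874 and 5315 CPM, was 1.37-fold higher. Tap2 went the other way, from 234 CPM in naive to 83.2 CPM in EAE, or 0.356-fold (0.146 to 0.751) on 8 EAE UMIs. At least 2-fold higher were 2 of the 10, against 8.76% of 3185 genes, and 1 was 2-fold lower, against 15.7%. Both higher genes had under 20 naive UMIs (11 of H2-Q7 and 12 of Psmb9) and did not reach the minimum in the naive library alone, so the count of 2 carries no weight of its own. Other pathway genes at least 2-fold higher were Tapbpl, a tapasin relative, at 3.53-fold, Psmb6 and Irf1 at 2.45-fold each, H2-T22 at 2.32-fold and Psme1 at 2.06-fold. Ifngr1, a chain of the interferon gamma receptor, was at 0.0959-fold (2 EAE UMIs) and Ifnar1 at 0.396-fold.

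Pericyte- or smooth muscle-like cells had lower levels and larger ratios than endothelial-like cells for several genes. H2-D1 was at 238 CPM in 518 naive TRAIL- barcodes and 609 CPM in 469 EAE TRAIL- barcodes, 2.56-fold higher (2.04 to 3.23). H2-T23, at 29.4 and 119 CPM, was 4.05-fold higher (2.20 to 8.06), and Psmb8, at 18.1 and 85.0 CPM, 4.69-fold (2.17 to 11.6). B2m, at 983 and 1665 CPM, was 1.69-fold higher and H2-K1, at 224 and 388 CPM, 1.73-fold. Tap2 was lower, at 177 CPM in naive and 119 CPM in EAE, or 0.676-fold (0.473 to 0.960). The minimum for comparison was met by 7 of the 10 genes, of which 3 were at least 2-fold higher, against 3.05% of 3863 genes. H2-T23 and Psmb8, on 13 and 8 naive UMIs, reached it through their EAE counts, which leaves H2-D1 as 1 of 5. Below it, H2-Q7 had 1 UMI in naive and 11 in EAE, Tap1 10 and 33, and Psmb9 10 and 6. Of the regulators, Irf1 was 11.1-fold higher (4.50 to 35.3), Stat2 6.55-fold and Irf9 2.68-fold, and Ifnar1 was at 0.379-fold, where 3.99% of genes were at least 2-fold lower.

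The summed levels of MHC class II genes and of monocyte and macrophage markers were higher in the EAE library in these 3 vascular groups. MHC class II genes summed to 146 CPM in EAE against 34.0 CPM in naive TRAIL- endothelial-like cells, to 894 against 38.3 CPM in the Sema3g/Gkn3 cluster and to 328 against 27.2 CPM in pericyte-like cells. The 15 monocyte and macrophage markers summed to 168 against 36.2 CPM, 177 against 76.5 CPM and 210 against 49.8 CPM in the same order. The 15 microglial markers summed to 832 against 787 CPM, 1373 against 293 CPM and 801 against 666 CPM. In barcodes with no class II UMI (not thinned) the log2 ratio of H2-Q7 in endothelial-like cells was 2.58, beside 2.73 in all of them. In pericyte-like cells without class II UMIs those of H2-D1 and Psmb8 were 1.29 and 2.01, beside 1.36 and 2.23, and 2 of the 10 genes were at least 2-fold higher in place of 3. No such ratio is given for the Sema3g/Gkn3 cluster, where 10 of 76 EAE and 3 of 208 naive barcodes had a class II UMI. Whether RNA of myeloid cells had a part in the vascular differences was not tested.

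Oligodendrocyte-like cells had the largest ratios of the compared classes for B2m, H2-K1 and H2-D1. In naive TRAIL- mice their 79 barcodes held 40 UMIs of the 10 genes in all, and in EAE TRAIL- 35 barcodes held 725. B2m went from 113 CPM (63.3 to 187) to 3590 CPM (3181 to 4037), 31.7-fold higher (18.9 to 57.5). H2-D1, at 67.9 and 2097 CPM, was 30.9-fold higher (15.9 to 68.8), and H2-K1, at 60.3 and 1248 CPM, 20.7-fold (10.1 to 49.3). H2-T23 had no UMI in naive and 92 in EAE, which makes it at least 52.3-fold higher when 3 UMIs stand for the naive 0. Psmb8 had 1 naive UMI and 39 in EAE, a ratio of 66.6 (11.3 to 2695), and Tapbp had 3 and 23, a ratio of 13.1 (3.95 to 68.1). These 6 genes passed the minimum and all were at least 2-fold higher, against 10.2% of 1844 genes. Each had under 20 UMIs in naive and passed through its EAE counts, so the count of 6 carries no weight of its own. Below the minimum were Tap2 with 2 and 13 UMIs, Psmb9 with 0 and 8, H2-Q7 with 0 and 6 and Tap1 with 2 and 5. Of the other pathway genes the loading chaperone Calr was 2.53-fold higher.

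The oligodendrocyte-like difference was uneven between barcodes but did not rest on a single barcode. At 500 UMIs, 21 of 35 EAE barcodes (60.0%) and 12 of 79 naive barcodes (15.2%) had a UMI of any of the 10 genes. The EAE barcodes had a median of 3 such UMIs, with 7 at the upper quartile, and the naive barcodes a median of 0. H2-D1 was seen in 57.1% (39.4 to 73.7) of EAE and 5.06% (1.40 to 12.5) of naive barcodes. Without thinning the shares were 62.9% and 7.59%, at median depths of 2154 and 1590 UMIs. The 92 UMIs of H2-T23 came from 11 barcodes, at most 20 from 1 of them, and the 279 UMIs of B2m from 26 barcodes, at most 30 from 1. H2-T23 made up 12.7% of the 10 genes' UMIs in EAE TRAIL- oligodendrocyte-like cells, and 2.90% in microglia-like cells and 2.91% in the Chil3/Plac8 cluster. In EAE and naive oligodendrocyte-like cells the microglial markers came to 322 and 204 CPM in all, with 5 and 6 of 15 at 0, monocyte and macrophage markers to 116 and 22.6 CPM, and class II genes to 142 and 7.54 CPM. In barcodes with no class II UMI (25 EAE, 78 naive) the log2 ratios stayed close, at 4.74 for B2m, 4.72 for H2-D1 and 4.35 for H2-K1, beside 4.99, 4.95 and 4.37. The part of myeloid RNA in the difference was not tested.

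Choroid plexus-like cells also had higher levels in EAE, on few counts. B2m was at 125 CPM in 91 naive TRAIL- barcodes and 495 CPM in 41 EAE TRAIL- barcodes, 3.97-fold higher (2.70 to 5.89). H2-K1, at 31.9 and 167 CPM, was 5.23-fold higher (2.51 to 11.7), and H2-D1, at 14.5 and 155 CPM, 10.7-fold (4.01 to 35.6). Tap2, at 11.6 and 142 CPM, was 12.3-fold higher (4.19 to 48.8), but its 23 EAE UMIs came from 5 barcodes, 8 of them from 1. Of the 80 EAE UMIs of B2m, 31 came from 1 barcode. Tapbp, at 55.1 and 105 CPM, was 1.91-fold higher (0.931 to 3.87). Of the 10 genes 5 passed the minimum and 4 were at least 2-fold higher, against 7.96% of 3254 genes. H2-K1, H2-D1 and Tap2 had under 20 naive UMIs and passed through their EAE counts, which leaves B2m as the gene whose call carries weight. Below the minimum H2-T23 had 3 and 12 UMIs, Psmb8 0 and 8, H2-Q7 0 and 4 and Tap1 6 and 2, and Psmb9 had none. Of the other pathway genes Ifnar2 was 3.08-fold and Psmb7 2.07-fold higher. Class II genes came to 686 CPM in EAE against 8.70 CPM in naive cells, and monocyte and macrophage markers to 284 and 23.2 CPM. Without the 13 EAE and 3 naive barcodes that had class II UMIs, the log2 ratio of B2m was 1.29 in place of 1.99 and that of H2-K1 1.64 in place of 2.39. Those of H2-D1 and Tap2 were 3.05 and 3.70 in place of 3.41 and 3.62. Only 1 gene then both passed the minimum and was 2-fold higher.

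Astrocyte-like cells, the target of the reporter, had levels in the naive libraries alone, since EAE gave 11 of these barcodes. B2m was at 852 CPM (729 to 990) in naive TRAIL+ and 211 CPM (123 to 337) in naive TRAIL-, with intervals that do not overlap. H2-K1, at 271 and 273 CPM, and H2-D1, at 105 and 149 CPM, had intervals that do. The naive TRAIL- cells had no UMI of H2-Q7, Tap1 or Psmb9. Of their 22 UMIs of H2-K1, 12 came from 1 barcode. Microglial markers summed to 7167 CPM in naive TRAIL+ and 1400 CPM in naive TRAIL- astrocyte-like cells, and their part in the B2m difference was not tested. Fibroblast-like cells, 30 barcodes in naive TRAIL-, had 1380 CPM of B2m (1101 to 1709) and no UMI of H2-Q7 or Tap1.

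Across the 22 pairs of class and library the 10 genes kept a similar order of levels, most of all the heavy chains and B2m. Pearson's r of log2(CPM + 10) with the mean of the other 9 was 0.97 for H2-K1, 0.96 for H2-D1, 0.95 for B2m and 0.93 for Psmb9. It was 0.90 for Psmb8, 0.89 for Tapbp, 0.88 for H2-Q7 and for H2-T23, 0.82 for Tap1 and 0.74 for Tap2. The closest pair was H2-K1 and H2-D1 at 0.97 and the farthest Tap1 and Tap2 at 0.58. Of 4066 genes that averaged 50 CPM or more, those outside the pathway whose levels were most like the mean of the 10 were Cflar at 0.90, Samhd1 and Gbp7 at 0.89, Igtp at 0.86 and Oasl2 at 0.85. The 22 points share 4 libraries and, for many, a class, so r describes these levels and was not tested.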

How the data were processed

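The authors' deposited tables hold raw UMI counts per barcode and gene, not scaled. Reads were aligned with Bowtie to GRCm38 per the submitters' processing notes, and the sources used here name no version or annotation. Groups follow the sample labels. Barcodes with at least 500 UMIs and at most 20% mitochondrial UMIs were kept. They were clustered in scanpy 1.11.5 (2000 variable genes, 30 components, 15 neighbours, Leiden resolution 1) without the 10 genes, their pathway, MHC class II and mitochondrial genes, 93 in all, and clusters were named from marker lists of 16 cell types. Doublets were kept, and their removal was an alternative. UMIs were summed per class and library and divided by the total. Ratios and shares have exact Clopper-Pearson and levels exact Poisson 95% intervals, which treat UMIs as independent and cover counting error only. A ratio to a library without UMIs used a floor of 3 counts. Genes with a mean of 50 CPM and 20 UMIs over both libraries were compared, by a size of 2-fold and not by a test. The 10 genes are all named, and of the other pathway lists those at least 2-fold apart, at most 4 per list and comparison, except 1 item that is not reported here. The members and lists were chosen with earlier results of these data known. The scripts were checked on simulated data. Alternatives covered scaling (edgeR's TMM and size factors), gene and barcode filters, clustering and class II or doublet barcodes.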

Additional observations from a re-analysis of the deposited data

Results flagged for a closer look

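Tap2 did not move in 1 direction across cell classes, EAE over naive, with intervals on either side of 1. It was 1.53-fold higher (95% interval 1.12 to 2.09) in microglia-like cells of the TRAIL- gate, 1.19-fold (1.03 to 1.38) in those of the TRAIL+ gate, 1.34-fold (1.03 to 1.75) in endothelial-like cells and 12.3-fold (4.19 to 48.8, on 23 and 4 UMIs) in choroid plexus-like cells. It was at 0.676-fold (0.473 to 0.960) in pericyte-like cells and 0.356-fold (0.146 to 0.751, on 8 and 55 UMIs) in the Sema3g/Gkn3 cluster. Of the 105 EAE UMIs in TRAIL- microglia-like cells, 14 and 11 came from 2 barcodes. In endothelial-like cells 15 and 8 of 99 EAE UMIs and 7 and 6 of 140 naive UMIs came from 2 barcodes each. A Tap2 UMI was seen in 9.69% of EAE and 9.88% of naive TRAIL- endothelial-like barcodes, not thinned. With 1 library per group the difference between classes was not tested.

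Barcodes under 500 UMIs, which no comparison used, had more of the 10 genes in the EAE libraries too, as sums over unclassified barcodes of libraries that hold different cells. In EAE TRAIL- 1180 such barcodes had 6407 CPM of the 10 genes summed (6111 to 6714), and 1421 of naive TRAIL- had 3314 CPM (3121 to 3515). In EAE TRAIL+ 978 had 9597 CPM (9188 to 10020), and 1422 of naive TRAIL+ had 4560 CPM (4327 to 4803). H2-D1 alone was at 903 against 464 CPM and 1276 against 555 CPM. These barcodes were given no class, so a difference in which cells they came from and one in level cannot be told apart.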

How the results depend on the processing

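Of 842 recomputed log2 ratios of single genes 796 moved by less than their counting interval, 46 by more, and 0 called ones changed sign. Of 98 recomputed counts of the 10 genes 92 stayed within 1.5 times. The others were as follows. With barcodes of at least 1000 UMIs, 2 genes were at least 2-fold higher in endothelial-like cells, 1 in the Sema3g/Gkn3 cluster and 5 in pericyte-like cells. Without class II barcodes 1 was in choroid plexus-like cells, where fewer genes passed the minimum. In the Mrc1/Pf4 cluster 3 were under TMM and under size factors. The background share of genes rose with a minimum of 10 CPM and 10 counts, or of 1 count, to 13.002% and 12.3% in microglia-like cells (TRAIL-), 3.85% and 15.8% (TRAIL+), 9.22% and 8.76% in endothelial-like cells, 13.4% and 51.6% in the Sema3g/Gkn3 cluster, 10.3% and 8.10% in pericyte-like cells and 12.5% and 11.4% in the Mrc1/Pf4 cluster. It rose to 12.01% and 57.2% between the EAE gates and 9.56% and 57.7% between the naive gates, and to 50.3% in choroid plexus-like cells with 1 count. Not thinned, H2-K1 was seen in 87.4% and 86.9% of EAE (TRAIL- first) and 55.8% and 60.8% of naive microglia-like barcodes, and H2-D1 in 82.1%, 81.9%, 42.9% and 49.7%. At 3 class II UMIs the class I ratio in EAE TRAIL+ microglia-like cells was 1.38. TMM moved log2 ratios by 0.19 and 0.24 between the gates and by -0.17 to 0.01 between EAE and naive. Marker calls per barcode and the own-marker minimum were not run for the Sema3g/Gkn3 and Mrc1/Pf4 clusters, and at most 10% mitochondrial UMIs left no count for oligodendrocyte-like cells. Restrictions to barcodes named in 1 library, to 1 microglial cluster or to barcodes without class II UMIs were chosen after seeing the data. No paired analysis was possible because there was 1 library per group and the labels carry no replicate numbers. Depth limits Psmb9, Tap1 and H2-Q7 outside myeloid and endothelial cells, where most values rest on under 20 UMIs. Clusters were named anew, so shares of cells may differ from the study's.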

Other observations

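Some further values belong to no comparison above. Microglia-like cells of the 2 main clusters had 14810 CPM (14391 to 15238) and 13557 CPM (12952 to 14182) of the 10 genes in EAE TRAIL-. In naive TRAIL- they had 6146 CPM (5824 to 6480) and 5527 CPM (5248 to 5816). The first cluster was higher in both libraries, with intervals that did not overlap. In pericyte-like cells of EAE TRAIL- 26 barcodes with a class II UMI had 5765 CPM of the 10 genes and 443 without one had 3143 CPM, a ratio of 1.83. In the Chil3/Plac8 cluster, where class II genes were abundant, the same ratio was 1.13 in EAE TRAIL- and 1.02 in EAE TRAIL+.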
